A study of Mus musculus with 4 samples.

Results

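Expression of 9 genes of the interferon response and of the sensing of double-stranded RNA was examined in mouse embryonic stem (ES) cells after knockdown of Atad2. The genes were taken from a list (Stat2, Irf1, Irf7, Ddx58, Ifih1, Eif2ak2, Isg15, Ifit1 and Ifit3) that was chosen with earlier results of these data known. All 9 had assigned transcripts, and 4 of them passed the filter on low values among the 9723 genes tested. They are part of 20557 genes with assigned transcripts of at least 200 bases. RNA-seq was performed on 4 libraries of 46C ES cells, in which a TAP tag had been knocked in at the end of the endogenous Atad2 gene, and the tagged line is 1 clone. The cells grew with LIF and serum on gelatin. In both libraries of the control group (si-ctrl 1 and si-ctrl 2) the cells had been transfected with a scrambled siRNA, and in both libraries of the knockdown group (si-Atad2 1 and si-Atad2 2) with an anti-Atad2 siRNA. Every library therefore came from cells that had received a short double-stranded RNA, and untransfected cells were not analysed here. The libraries of a group are labelled as replicates, whereas the study also describes the use of different active siRNAs and repeat sequencing of each RNA. Which siRNA each si-Atad2 library received is not given, and p-values then measure only the spread between these libraries, which may be technical.

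Type I interferons are secreted proteins that bind the receptor chains Ifnar1 and Ifnar2, whose kinases activate transcription factors that include Stat2. Together with Irf9, Stat2 takes part in a complex that binds the interferon-stimulated response element (ISRE) in the promoters of antiviral genes. Double-stranded RNA in the cytoplasm starts the response through the helicases RIG-I (encoded by Ddx58) and MDA5 (encoded by Ifih1), whereas the kinase PKR (encoded by Eif2ak2) binds such RNA and phosphorylates the translation factor eIF2 alpha. Pluripotent cells are known for a weak interferon response.

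The promoter sequences below were taken from RefSeq (GRCm38.p6) because they show where the members share the element read by the complex of Stat2 and Irf9. The core, a pair of GAAA motifs parted by any 2 bases (GAAA, then NN, then GAAA), was searched on both strands from 250 bases before to 50 bases after each start, capitals mark the match, and each stretch is printed 5′ to 3′ on the strand of its gene.
Stat2 (chr10:128270266-128270295, plus strand): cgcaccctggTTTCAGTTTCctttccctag
Ddx58 (chr4:40239804-40239833, minus strand): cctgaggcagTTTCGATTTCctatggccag
Ifih1 (chr2:62646206-62646235, minus strand): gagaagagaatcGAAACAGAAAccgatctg
Eif2ak2 (chr17:78882535-78882564, minus strand): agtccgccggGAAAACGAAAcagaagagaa
Isg15 (chr4:156200871-156200900, minus strand): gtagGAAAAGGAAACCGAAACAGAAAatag
Ifit1 (chr19:34640775-34640804, plus strand): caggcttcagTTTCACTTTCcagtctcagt
Ifit1 (chr19:34640794-34640823, plus strand): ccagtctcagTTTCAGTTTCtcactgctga
Ifit3 (chr19:34583363-34583392, plus strand): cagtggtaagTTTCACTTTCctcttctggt
Ifit3 (chr19:34583397-34583426, plus strand): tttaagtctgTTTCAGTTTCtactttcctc
The core was present in the window of 7 of the 9 members, against 3.99% of all 27025 genes with a promoter window, 16 of 34 other interferon-stimulated effectors and 0 of 9 ES cell markers. The match of Isg15 holds 3 overlapping copies and begins 78 bases before the start. The matches of Ifit1 begin 104 and 85 bases before it, those of Ifit3 156 and 122 bases before it, and that of Stat2 222 bases before it. In Ddx58, Eif2ak2 and Ifih1 the match begins 2, 18 and 32 bases after the start, so that it lies in the transcribed part. All 9 members had a window, and Irf1 and Irf7 hold no such letters in this window. The gamma-activated site TTCNNNGAA, an element of the response to gamma interferon, is its own reverse complement in form and was found in 2 of 9 members, Irf1 and Eif2ak2, against 9.55% of all genes, 2 of 9 ES cell markers and 6 of 15 ligand and receptor genes. Its match in Irf1 begins 90 bases before the start.
Irf1 (chr11:53769914-53769943, plus strand): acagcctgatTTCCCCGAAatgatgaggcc
A match describes the letters of the window and was not tested as a binding site.

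Levels are given in FPKM (fragments per kilobase and scaled for depth within a run), a measure per length by which genes can be compared. Cuffdiff had been run on pair 1 (si-Atad2 1 and si-ctrl 1) and on pair 2 (si-Atad2 2 and si-ctrl 2). Ratios of si-Atad2 over si-ctrl were therefore formed inside each pair, as log2 of FPKM plus 1, a scale on which changes of low genes look smaller than they are. Read counts are not part of the tables, so that depth is known only roughly. From the deposited 95% intervals it was estimated at 41300000 to 44500000 fragments over transcripts alone at their locus and at 37500000 to 40000000 over all transcripts, and other choices of transcripts or lengths may move it further. Atad2 itself (chr15:58094044-58135082, minus strand) stood at 34.1 and 36.0 FPKM in si-ctrl 1 and 2, and at 10.1 and 13.0 FPKM in si-Atad2 1 and 2. Its log2 ratios were -1.66 and -1.40 (mean -1.53, standard error 0.077, adjusted p = 4.6e-06 by limma with Benjamini-Hochberg adjustment over 9723 genes). The 10 ES cell markers summed to 3591 and 3601 FPKM in the si-ctrl libraries and to 3368 and 3373 FPKM in the si-Atad2 libraries, with Dppa5a (985 FPKM in the mean of the si-ctrl libraries), Pou5f1 (792) and Tdgf1 (467) in front. The 10 fibroblast markers summed to between 9.87 and 11.4 FPKM. Most of it came from Thy1 (6.46 FPKM in the mean of the si-ctrl libraries), Pdgfrb (2.25) and Col1a1 (1.31). Fap and Lum were at 0 in every library. The 10 macrophage markers summed to between 14.9 and 17.2 FPKM, most of it from Cd68 and Cd74.

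The 9 genes fell into a group of 4 that was expressed in ES cells and a group of 5 close to the limit of detection. In the mean of the si-ctrl libraries (SD, n = 2), the transcription factor gene Irf1 stood at 25.7 ± 0.28 FPKM, the RIG-I gene Ddx58 at 10.9 ± 0.22, Stat2 at 8.22 ± 0.28 and the PKR gene Eif2ak2 at 4.56 ± 0.20 FPKM. Each of these differed from its neighbours in the order by more than the spread of the libraries. The other 5 lay under 1 FPKM: Isg15, which encodes a ubiquitin-like protein, at 0.221 ± 0.038 FPKM, Irf7 at 0.099 ± 0.016, the MDA5 gene Ifih1 at 0.087 ± 0.0040, Ifit1 at 0.067 ± 0.015 and Ifit3 at 0.010 ± 0.0074 FPKM. The intervals of Isg15, Irf7, Ifih1 and Ifit1 overlapped in each si-ctrl library, so that their order is not resolved. That of Ifit3 overlapped the interval of Irf7 in both si-ctrl libraries and that of Ifit1 in si-ctrl 1. Each pair was scaled on its own, so that levels of different pairs are compared here only as a description.

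**Figure D1:**
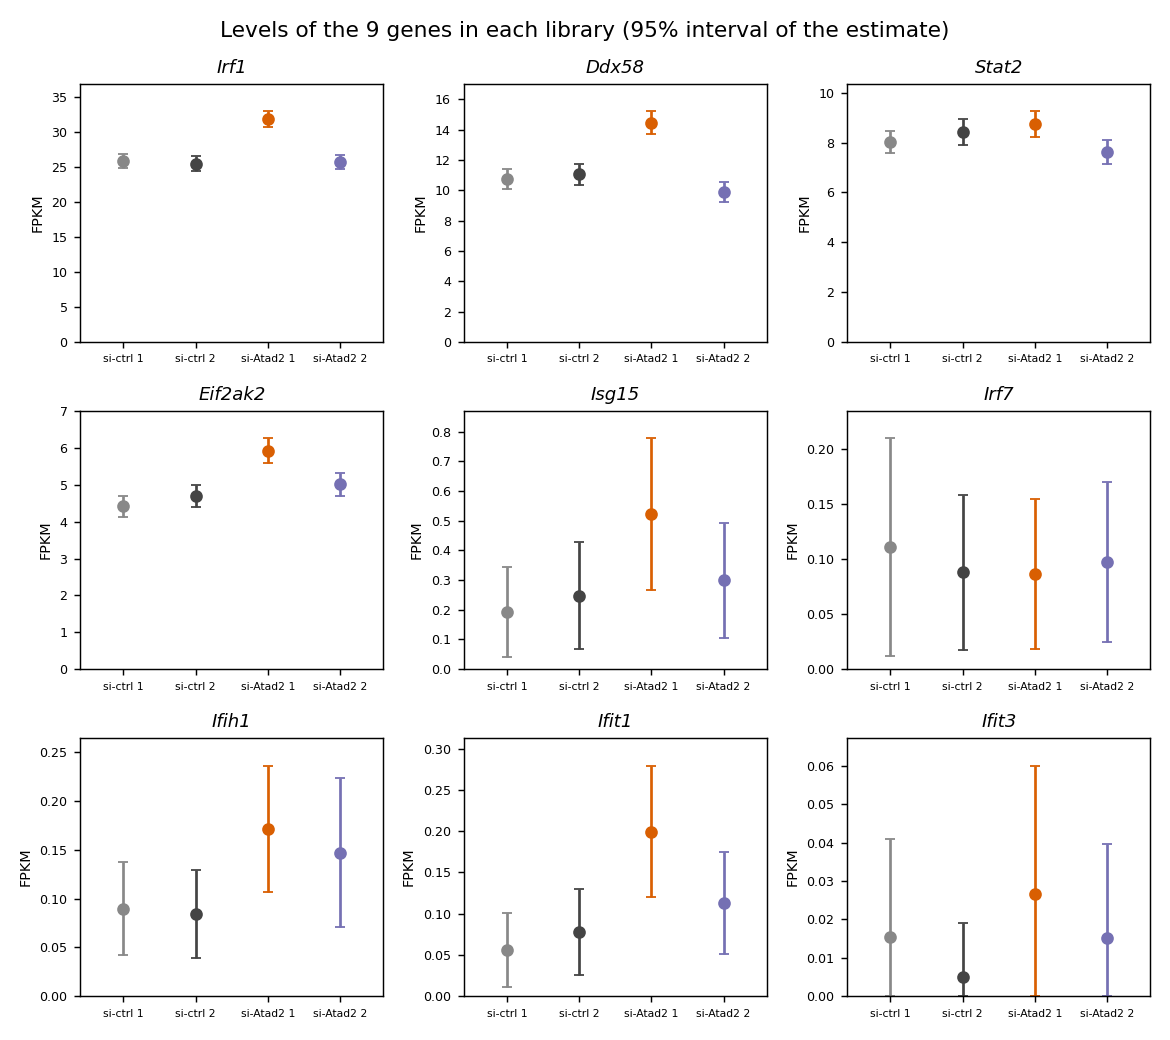
Level in FPKM (vertical axes, each from 0 and with its own scale) of the 9 genes in the 4 libraries. Points show the estimate and bars a 95% interval, cut at 0. It was formed from the upper bounds of the authors' intervals, with the variances of the transcripts of a gene added as if independent. The point of si-Atad2 1 is the highest for 8 of the 9 genes, and the bars are narrow for Irf1, Ddx58, Stat2 and Eif2ak2 and wide for the 5 genes under 1 FPKM.

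Among the signalling genes, Stat2 (chr10:128270559-128292849, plus strand), a subunit of the ISRE-binding complex, stood at 8.02 FPKM in si-ctrl 1 (95% interval 7.58 to 8.46) and 8.73 FPKM in si-Atad2 1 (8.21 to 9.26). In pair 2 it stood at 8.42 FPKM in si-ctrl 2 (7.89 to 8.94) and 7.62 FPKM in si-Atad2 2 (7.14 to 8.11). Thus si-Atad2 1 was the highest and si-Atad2 2 the lowest library, and both si-ctrl libraries lay between them. The log2 ratios of pairs 1 and 2 were 0.11 and -0.13 (mean -0.0084, standard error 0.081), and the adjusted p was 0.973 by limma. The sign of this mean turned after TPM scaling (0.025), without si-ctrl 2 (0.022) and without si-Atad2 2 (0.079). As these are bulk libraries, a lower level in fewer cells and less RNA in each cell cannot be told apart.

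Irf1 (chr11:53770014-53778374, plus strand) encodes an interferon regulatory factor that is itself induced by interferons and activates antiviral and antigen presentation genes. Its level was 25.9 FPKM in si-ctrl 1 (24.8 to 26.9), 25.5 in si-ctrl 2 (24.4 to 26.5), 31.8 in si-Atad2 1 (30.7 to 33.0) and 25.7 in si-Atad2 2 (24.7 to 26.8). Only si-Atad2 1 stood apart, 1.23-fold above its control, whereas the other 3 libraries had overlapping intervals. The log2 ratios were 0.29 and 0.01 (mean 0.15, standard error 0.077), with an adjusted p of 0.369 by limma. Nearly all of this level was in the transcript uc007iww.2, at 25.3 FPKM in both si-ctrl libraries and at 31.5 and 25.4 FPKM in si-Atad2 1 and 2. A coding gene of the opposite strand, Gm17334, lies inside Irf1, and since the use of strand in the counting is not stated, its reads cannot be told apart from those of Irf1. The 2 other listed transcripts at this locus reached at most 0.496 FPKM.

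Irf7 (chr7:141262706-141266481, minus strand), a factor that drives the production of type I interferons, was listed at 0.111 and 0.088 FPKM in si-ctrl 1 and 2 and at 0.086 and 0.097 FPKM in si-Atad2 1 and 2. It was the only member that did not have its highest level in si-Atad2 1, and all 4 intervals overlapped. Judged from the intervals, each level has the relative error of a count of 4.84 to 6.86 fragments, spread over 5 listed transcripts of which different ones carried the value in different libraries. Irf7 also overlaps Phrf1, whose transcripts reach 23.4 FPKM. No difference of Irf7 was detectable at this depth.

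Among the sensors, Ddx58 (chr4:40203773-40239828, minus strand) showed, as log2 ratios of FPKM plus 1, the largest difference between the pairs of the 9 members. Its level was 10.7 FPKM in si-ctrl 1 (10.1 to 11.4) and 14.5 in si-Atad2 1 (13.7 to 15.2). In pair 2 it was 11.1 FPKM in si-ctrl 2 (10.4 to 11.7) and 9.89 in si-Atad2 2 (9.24 to 10.5). The si-Atad2 libraries thus lay on either side of the si-ctrl libraries, which overlapped each other. The log2 ratios of pairs 1 and 2 were 0.40 and -0.15 (mean 0.12, standard error 0.108), and the adjusted p was 0.613 by limma. A distance between the pairs as large as this 0.54 was found for 0.915% of the genes tested. The same share was 15.2% for the distance of Stat2, 10.3% for that of Irf1 and 10.1% for that of Eif2ak2.

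Eif2ak2 (chr17:78852564-78882573, minus strand) was the only expressed member whose groups did not overlap. PKR shuts down translation when it is bound to double-stranded RNA. The single listed transcript of the gene, uc008dph.2, stood at 4.42 FPKM in si-ctrl 1 (4.14 to 4.71), 4.70 in si-ctrl 2 (4.40 to 5.004), 5.93 in si-Atad2 1 (5.61 to 6.26) and 5.02 in si-Atad2 2 (4.71 to 5.32). Both si-Atad2 libraries were above both si-ctrl libraries, with si-Atad2 1 separated from all others by its interval, whereas the intervals of pair 2 overlapped. The log2 ratios of pairs 1 and 2 were 0.35 and 0.08 (mean 0.22, standard error 0.088). The p was 0.0315 before adjustment and 0.250 after it by limma, so the change did not pass the threshold of 0.05, and 16.3% of all genes tested had an unadjusted p under 0.05.

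Ifih1 (chr2:62595798-62646255, minus strand), the sensor of long double-stranded RNA, was listed at 0.090 and 0.084 FPKM in si-ctrl 1 and 2 and at 0.171 and 0.147 FPKM in si-Atad2 1 and 2. The levels of the si-Atad2 libraries were both above those of the si-ctrl libraries. Their intervals are those of about 13.5 and 13.6 fragments in the si-ctrl libraries and of 26.7 and 14.2 in the si-Atad2 libraries. The difference was 0.082 FPKM in pair 1, with an interval of 0.00083 to 0.162, and 0.063 FPKM in pair 2, with an interval of -0.026 to 0.152. These intervals cover counting error as Cuffdiff estimated it, and set a single library against a single library.

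All 3 effectors lay under 1 FPKM. Isg15 (chr4:156199424-156200818, minus strand), a modifier that is conjugated to proteins during the antiviral response, stood at 0.194 and 0.248 FPKM in si-ctrl 1 and 2 and at 0.521 and 0.299 FPKM in si-Atad2 1 and 2. In fragments, estimated in the same way, this amounts to 6.28 and 7.21 against 15.9 and 9.14. The difference in pair 1 was 0.328 FPKM (0.030 to 0.625) and that in pair 2 was 0.051 FPKM (-0.214 to 0.316), so that the groups did not overlap but only pair 1 exceeded counting error.

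Ifit1 (chr19:34640871-34650009, plus strand) and Ifit3 (chr19:34583531-34588731, plus strand) encode tetratricopeptide proteins, of which Ifit1 binds viral RNA lacking the host cap modification. Ifit1 was listed at 0.056 and 0.078 FPKM in si-ctrl 1 and 2 and at 0.200 and 0.112 FPKM in si-Atad2 1 and 2, that is 5.88 and 8.73 against 24.0 and 12.7 fragments. Its difference was 0.144 FPKM in pair 1 (0.052 to 0.235) and 0.034 FPKM in pair 2 (-0.046 to 0.115). Ifit1 shares its locus with paralogs, and the 6 other transcripts there reached at most 0.022 FPKM, so the division of its reads is uncertain. Ifit3 was listed at 0.015 and 0.0050 FPKM in the si-ctrl libraries and at 0.027 and 0.015 FPKM in the si-Atad2 libraries, all of them under 3 fragments, and no difference was detectable at this depth.

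Across the list, 8 of 9 members had their highest level in si-Atad2 1, against 35.6% of the genes tested and 30.6% of the 7603 genes above 0 and under 1 FPKM. The groups did not overlap for 4 members, all higher with si-Atad2 (Eif2ak2, Isg15, Ifit1 and Ifih1), where the background was 22.6% of the genes tested and 23.2% of the weakly expressed genes. No member had both si-Atad2 libraries under both si-ctrl libraries, against 26.8% of the genes tested, a share not formed for weakly expressed genes. The summed level of the 9 members was 49.5 and 50.2 FPKM in si-ctrl 1 and 2, 62.0 in si-Atad2 1 and 48.9 in si-Atad2 2, and Irf1 and Ddx58 carry most of it. Members are not replicates, and the count says nothing on how often a second set of libraries would give this order. None of the 4 members tested had an adjusted p under 0.05 by limma, whereas 2.15% of all genes tested did, 1.68% higher and 0.473% lower. At an unadjusted p under 0.05 the count of members was 1. Without si-Atad2 2, Irf1, Ddx58 and Eif2ak2 passed the threshold, with log2 ratios of 0.30, 0.38 and 0.32, in a fit where 1864 genes passed and whose spread came from the si-ctrl libraries alone. With 2 libraries against 2 and the pairing ignored, the smallest p of a two-sided exact permutation test is 0.333. Permuting inside the pairs allows fewer arrangements, so that its smallest p is larger.

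Compared with its control, the si-Atad2 library was higher for 8 of 9 members in pair 1, against 50.5% of the genes tested, and for 7 of 9 in pair 2, against 44.1%. In both pairs it was higher for 6 members, against 28.7%. The shares of this paragraph are of genes at 1 FPKM or more, whereas 5 of the 9 members lay under that level. For weakly expressed genes no share of these signs or intervals was formed. Of the 4 members tested, 4 were higher in pair 1 and 2 in pair 2, and the signs differed for 2. The signs of the pairs differed for 3 of the 9 members, Ddx58, Stat2 and Irf7, against 37.2% of the genes tested, a share close to the background. Ddx58 and Stat2 were higher in pair 1 and lower in pair 2, a combination of 21.8% of the genes tested. Of the 3, the values of Irf7 were within counting error in both pairs. By the intervals of the difference, 7 members were higher in pair 1 (all but Irf7 and Ifit3), against 22.3% of the genes tested, and none was lower, against 21.6%. Isg15, Ifit1 and Ifih1, among these 7, lay under 1 FPKM and were not tested. In pair 2 none was higher, against 10.9%, and Ddx58 and Stat2 were lower, against 18.8%. For Ddx58 the difference was 3.71 FPKM in pair 1 (2.69 to 4.73) and -1.17 FPKM in pair 2 (-2.11 to -0.23). For Stat2 it was 0.714 FPKM in pair 1 (0.028 to 1.40) and -0.791 FPKM in pair 2 (-1.50 to -0.080). Among members, only Ddx58 and Stat2 were beyond the intervals of the difference in opposite directions, a pattern of 2.44% of the genes tested. The intervals of the libraries themselves overlapped for Stat2 in both pairs and for Ddx58 in pair 2. Those of the difference treat the transcripts of a gene as independent. By that measure, the opposite signs lay in 1 sensor gene and 1 signalling gene. Irf1 and Eif2ak2 were higher in pair 1, while the intervals of their differences in pair 2 spanned 0. The differences in pair 2 were 0.250 FPKM (-1.22 to 1.72) for Irf1 and 0.314 FPKM (-0.116 to 0.744) for Eif2ak2. Leaving out si-Atad2 1 turned the mean log2 ratio of Ddx58 to -0.13.

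**Figure D2:**
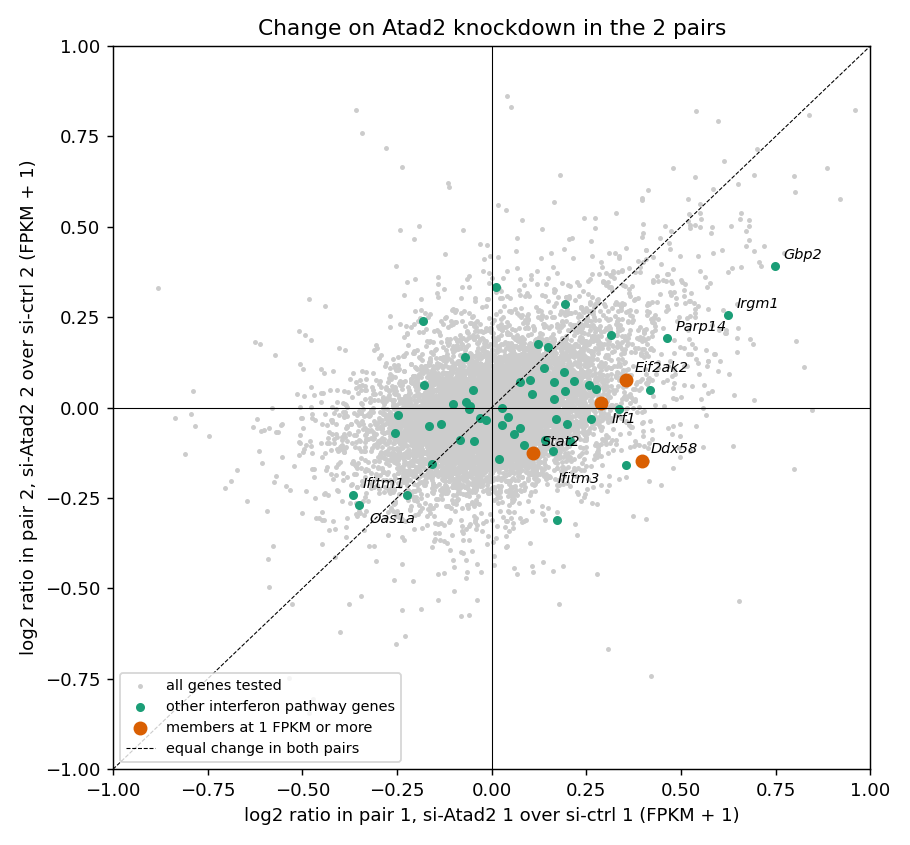
Log2 ratio of FPKM plus 1 in pair 1 (horizontal) and pair 2 (vertical) for the genes tested (grey), the genes of the other interferon lists (green) and the 4 members at 1 FPKM or more (orange), with 13 genes outside the plotted range. The members lie to the right of 0, at 0.11 to 0.40 in pair 1, and close to or under 0 in pair 2, at -0.15 to 0.08.

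The opposite signs were then followed to single transcripts. Ddx58 has 2 transcripts above 1 FPKM, uc008she.1 of 3533 bases and uc008shf.1 of 4943 bases. The short one stood at 6.71 and 6.90 FPKM in si-ctrl 1 and 2 and at 9.52 and 6.88 FPKM in si-Atad2 1 and 2. The long one stood at 3.30 and 3.73 FPKM in si-ctrl 1 and 2 and at 4.31 and 2.38 FPKM in si-Atad2 1 and 2. In pair 1 both were higher, by 2.81 and 1.01 FPKM. In pair 2 the short one differed by -0.024 FPKM, within its interval, while the long one differed by -1.35 FPKM, outside the intervals of both libraries. As Cuffdiff divided the reads, the lower level of Ddx58 in si-Atad2 2 lay in the long transcript. That transcript was assigned to Ddx58 as the only coding gene at its locus, not by length. The other 3 transcripts stayed at or under 0.304 FPKM in every library.

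In Stat2 the higher level of pair 1 lay outside the main transcript. The main one, uc007hma.1 of 4394 bases, was slightly lower in both pairs, at 7.22 against 6.97 FPKM in si-ctrl 1 and si-Atad2 1 and at 6.93 against 6.33 FPKM in si-ctrl 2 and si-Atad2 2. The transcript uc007hmb.1 stood at 0.399 and 0.946 FPKM in pair 1 and at 1.19 and 0.802 FPKM in pair 2, so that its si-ctrl libraries differed from each other more than either pair. The transcript uc011xqd.1 stood at 0.400 and 0.820 FPKM in pair 1 and at 0.298 and 0.493 FPKM in pair 2. Assigning transcripts to genes by length alone leaves out the long transcript of Ddx58 and, in Stat2, all but the main one. The ratios were then -0.05 and -0.11 for Stat2 and 0.44 and 0.0010 for Ddx58. Neither gene kept its opposite signs, which follows from the transcripts left out and is not a separate check. How Cuffdiff divides the reads of overlapping transcripts bears on these values, and its part in them was not tested.

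**Figure D3:**
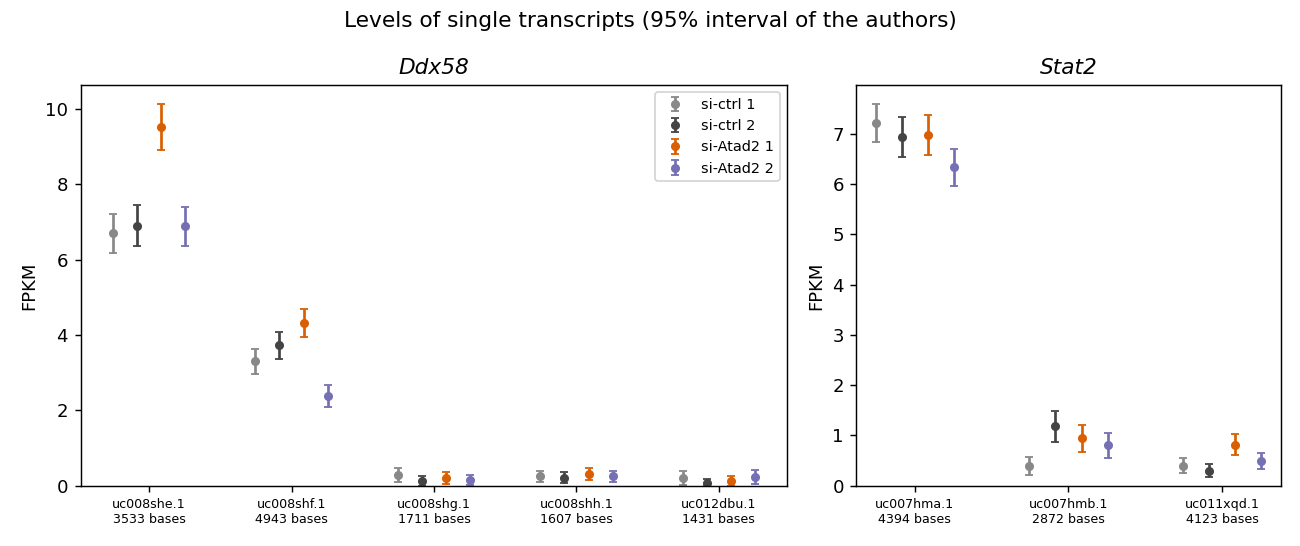
Level in FPKM (vertical axes from 0) of each listed transcript of Ddx58 (left) and Stat2 (right) in the 4 libraries, with the authors' 95% interval. The long transcript of Ddx58 is at 2.38 FPKM in si-Atad2 2, under the other 3 libraries, while the short one is at 6.88 FPKM there, level with both si-ctrl libraries.

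The median log2 ratio of the 4 members tested was 0.32 in pair 1 and -0.06 in pair 2, and 0.14 in the mean of the pairs, which became -0.046 without si-Atad2 1 and 0.309 without si-Atad2 2. Over all genes tested the same medians were 0.0017, -0.016 and -0.0081. The pair 1 ratio of a gene moved with the GC content of its transcripts (Spearman's rho of -0.283 across genes, 0.081 in pair 2 and -0.545 for si-ctrl 2 over si-ctrl 1; genes share their libraries and are not independent). The GC content of Ddx58 and Eif2ak2 is 45.4% and 45.3%, and that of Irf1 and Stat2 is 55.0% and 53.2%. With the trend with GC content removed, the ratios of pair 1 were 0.34 for Ddx58, 0.30 for Eif2ak2, 0.33 for Irf1 and 0.14 for Stat2, and those of pair 2 were -0.14, 0.08, 0.0093 and -0.13. The signs of the pairs stayed as they were for all 4 genes, while the mean of Stat2 over the pairs moved from -0.0084 to 0.0033.

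The remaining genes of the pathway were described from lists by role. Among 16 ligand and receptor genes, 6 interferon genes (Ifnb1, Ifna1, Ifna2, Ifna4, Ifna5 and Ifnl3) were listed at 0 in every library. The receptor chain Ifnar1 stood at 12.3 and 12.7 FPKM in the si-ctrl libraries and at 14.4 and 11.9 FPKM in si-Atad2 1 and 2, with si-Atad2 1 above the rest. The gamma interferon receptor chain Ifngr1 stood at 3.41 FPKM and the lambda receptor chain Ifnlr1 at 2.34 FPKM in the mean of the si-ctrl libraries, and Ifnar2 at 0.613 FPKM. None of the 4 genes tested in this list passed the threshold, and their medians were 0.17 in pair 1 and -0.05 in pair 2. Of 15 genes of JAK-STAT signalling and interferon regulatory factors, 7 were tested and none passed. The highest levels in this list were those of the phosphatase gene Ptpn2 (31.0 FPKM), Pias1 (12.9 FPKM) and the kinase gene Tyk2 (8.81 FPKM). The median ratios of the list were 0.06 and -0.03. Socs1, a feedback inhibitor of the kinases, had the highest mean ratio with the same sign in both pairs, 0.15 (standard error 0.082, adjusted p = 0.413 by limma), and Tyk2 the lowest, -0.09 (standard error 0.074, adjusted p = 0.594).

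Of 24 genes of sensors and adaptors, 12 stood at 1 FPKM or more and were tested, and none passed the threshold, with medians of 0.0065 and -0.026. The helicase gene Dhx9 (135 FPKM), the ubiquitin ligase gene Trim25, which acts on RIG-I (39.2 FPKM), and Samhd1, which cleaves nucleotides (29.1 FPKM), led the list. The adaptor gene Mavs, through which RIG-I and MDA5 signal, stood at 7.78 FPKM, the receptor gene Tlr3 at 0.724 FPKM and Dhx58, the third helicase of the RIG-I family, at 0.670 FPKM. Mavs, Tlr3 and Dhx58 were chosen after their values were seen. The mean log2 ratio was lowest for Rnf135, a ligase that acts on RIG-I, at -0.23 (standard error 0.081, adjusted p = 0.176 by limma), and highest for Zbp1, a sensor of left-handed nucleic acids, at 0.15 (standard error 0.090, adjusted p = 0.463).

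**Figure D4:**
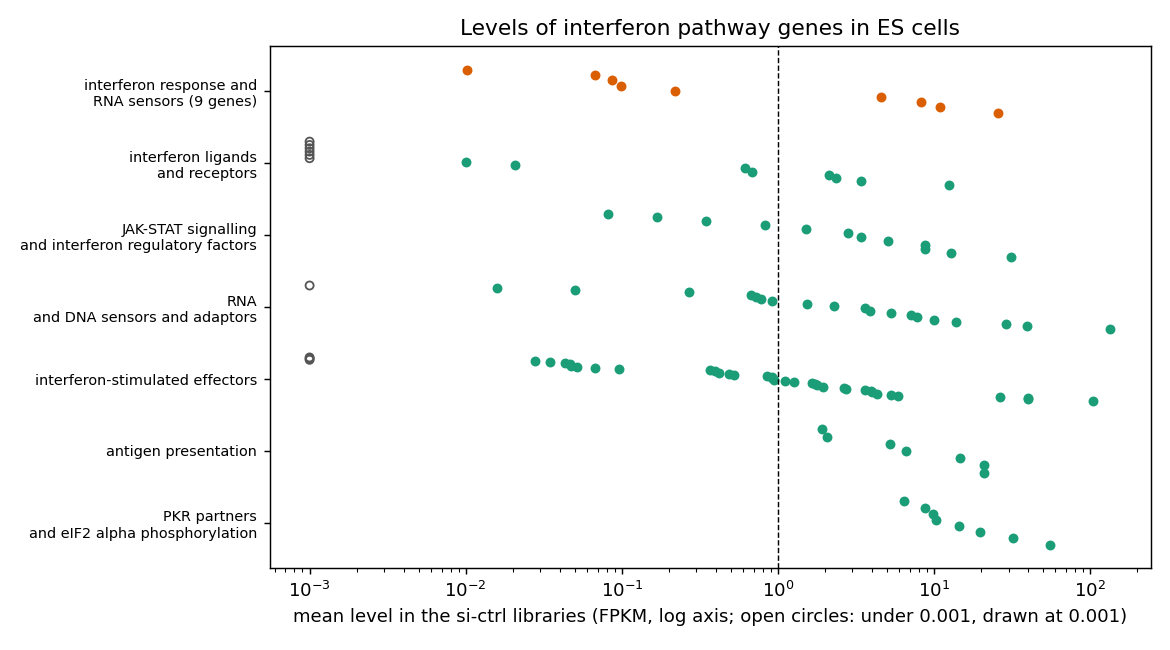
Mean level in the si-ctrl libraries (horizontal log axis in FPKM) of the 9 genes (orange) and of the genes of each interferon list (green), 1 point for each gene, with the dashed line at the limit of 1 FPKM for testing. The 9 genes split into 4 to the right and 5 to the left of the line, and open circles at the left edge stand for genes under 0.001 FPKM.

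Genes past the threshold were found among the other interferon-stimulated effectors, where 19 of 44 were tested. Of these 19, 2 were higher and 1 was lower, against 1.68% and 0.473% of all genes tested. The list was chosen with earlier results of these data known. Gbp2, a guanylate-binding protein induced by gamma interferon, stood at 2.74 and 2.72 FPKM in si-ctrl 1 and 2 and rose to 5.28 and 3.89 FPKM in si-Atad2 1 and 2. Its log2 ratios in the pairs were 0.75 and 0.39 (mean 0.57, standard error 0.096, adjusted p = 0.0109 by limma). Irgm1, an immunity-related GTPase of the same response, stood at 2.00 and 1.91 FPKM in the si-ctrl libraries and rose to 3.61 and 2.47 FPKM in the si-Atad2 libraries (log2 ratios 0.62 and 0.26, mean 0.44, standard error 0.10, adjusted p = 0.0498). Ifitm1, a membrane protein that is abundant in ES cells, stood at 109 and 99.2 FPKM in si-ctrl 1 and 2 and fell to 84.1 and 83.7 FPKM in si-Atad2 1 and 2 (log2 ratios -0.37 and -0.24, mean -0.30, standard error 0.061, adjusted p = 0.0281). All 3 calls were lost without si-ctrl 1 (adjusted p = 0.276, 0.527 and 0.467 by limma) or without si-ctrl 2 (0.265, 0.498 and 0.109), and that of Irgm1 also without si-Atad2 1 (0.0703). Without the low-value filter no gene passed by limma, Atad2 included, and the adjusted p was 0.473 for Gbp2, 0.481 for Irgm1 and 0.467 for Ifitm1. That of Irgm1 was 0.132 without pairing the libraries. The related Ifitm3 did not pass the test, with 40.6 and 39.5 FPKM in si-ctrl 1 and 2, 52.2 and 35.3 FPKM in si-Atad2 1 and 2, and ratios of 0.36 and -0.16. The medians of the list were 0.11 in pair 1 and 0.01 in pair 2. Bst2, which tethers viruses to the membrane, stood at 39.8 FPKM in the mean of the si-ctrl libraries, and the mean ratio of Oas1a, an oligoadenylate synthetase, was -0.31 (standard error 0.081, adjusted p = 0.0787).

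Of 9 antigen presentation genes, 7 were tested and none passed, with medians of 0.14 in pair 1 and 0.11 in pair 2. B2m, the light chain of class I molecules, stood at 14.8 and 14.4 FPKM in the si-ctrl libraries and at 18.6 and 16.7 FPKM in the si-Atad2 libraries, and its groups did not overlap (mean log2 ratio 0.26, standard error 0.070, adjusted p = 0.0899 by limma). The class I gene H2-K1 and the immunoproteasome gene Psmb10 stood at 20.87 and 20.96 FPKM in the mean of the si-ctrl libraries, and the mean ratio of Psmb10 was -0.03 (adjusted p = 0.863). Of 9 genes around PKR and the phosphorylation of eIF2 alpha, 7 were tested and none passed, with medians of 0.07 and -0.09. Eif2s1, which encodes eIF2 alpha, the substrate of PKR, stood at 52.8 and 58.3 FPKM in si-ctrl 1 and 2 and at 47.2 and 52.2 FPKM in si-Atad2 1 and 2 (mean log2 ratio -0.16, standard error 0.061, adjusted p = 0.229). The phosphatase subunit genes Ppp1r15b and Ppp1r15a stood at 32.3 and 14.4 FPKM in the mean of the si-ctrl libraries, and the latter had a mean ratio of 0.07 (adjusted p = 0.654). Tarbp2, an RNA-binding partner of Dicer that inhibits PKR, stood at 19.8 FPKM and was not tested.

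Among the tested genes of the other interferon lists, those whose pair of ratios lay closest to the members' medians of 0.32 and -0.06 were the GTPase gene Igtp (0.34 and -0.0049), Pias1 (0.26 and -0.03) and Ifitm3 (0.36 and -0.16). Their Euclidean distances from these medians, over the 2 pairs, were 0.054, 0.064 and 0.108.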

How the data were processed

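Total RNA of 4 libraries was prepared with the TruSeq protocol and sequenced from paired ends of 50 cycles, all in 1 lane. The submitters' processing notes name TopHat and Cuffdiff, with no version given in the sources used here, and the study's supplement names Bowtie. The notes label the build mm9, but the loci of the tables match GRCm38, which was used. The deposited FPKM values are the authors' Cuffdiff estimates with 95% intervals, 1 run for each pair, with each UCSC transcript entered as its own gene. The p-values, q-values and fold changes that the authors deposited come from 1 library against 1 library and were not used.

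Of 59120 listed transcripts, 14846 were assigned to a GENCODE vM21 gene by a length within 3 bases inside their locus (Ifit1 through its RefSeq start) and 28387 as belonging to the only coding gene there; 15887 had no gene. Transcripts under 200 bases were dropped and FPKM summed for each gene, with interval variances added. Genes that averaged 1 FPKM or more and had valid estimates in all libraries were tested with limma 3.58.1 in R 4.3.3 on the pair of log2 ratios (pseudocount 1 FPKM, eBayes with a trend, Benjamini-Hochberg adjustment, threshold 0.05, two-sided). The test was also run on simulated data, with independent errors of a single spread for all genes, taken from the si-ctrl libraries. Those data hold no trend with GC content and no deviating library, so they cannot show how the test behaves here. Count models do not suit FPKM and were left out, and depth is known only as an estimate from the intervals. The members and lists were chosen with earlier results of these data known. Besides the 9 members and Atad2, the genes named from each list were those past the threshold, the 3 with the highest si-ctrl level, the highest and lowest mean ratio of like sign, and the 3 nearest to the members' medians; other genes were chosen after their values were seen. Alternatives were the pseudocount, the filter, TPM and median-of-ratios scaling, transcripts of all lengths or assigned by length alone, no trend, no pairing, removal of the trend with GC content, and leaving out each library. Tables and figures were made with Python 3.11.15, numpy 2.4.6, pandas 2.3.3 and matplotlib 3.10.9. The result of 1 gene of the signalling list is not reported here.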

Additional observations from a re-analysis of the deposited data

How the results depend on the processing

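With 2 libraries a group, calls were few and depended on the settings, and 5 members lay too low to be tested. The count of all genes past the threshold, 209 in the reported analysis, was 319 with a pseudocount of 5 FPKM, 11 with transcripts of all lengths, 28 with transcripts assigned by length alone (3628 genes tested) and 72 with the trend with GC content removed. It was 0 by limma with no filter on low values, where 1721 genes had an unadjusted p under 0.05. Leaving out each library, fitted without pairing and with the lone sample taken to vary like the other group, gave 15 to 1864 genes: 31 without si-ctrl 1, 15 without si-ctrl 2, 717 without si-Atad2 1 and 1864 without si-Atad2 2. Of the calls, 163 were higher and 46 lower; the split was 191 to 25 after TPM scaling, 63 to 9 with the trend with GC content removed and 116 to 26 without the eBayes trend. Without the replicate block the count was 155, and Irgm1 was lost. The replicate numbers of the labels pair the libraries through the Cuffdiff runs. The residuals of si-ctrl 1 and si-Atad2 1 about their group means correlated at -0.0424. This single value across genes cannot show whether the libraries of a pair also shared a preparation.

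The count of members past the threshold was 0 under every alternative except leaving out libraries, where it was 0 to 3. The 3 came without si-Atad2 2, from a spread estimated in the si-ctrl libraries alone: Irf1 (0.30, adjusted p = 0.00049), Ddx58 (0.38, adjusted p = 1.0e-05) and Eif2ak2 (0.32, adjusted p = 0.00091). The members' median of 0.138 was -0.046 without si-Atad2 1 and 0.309 without si-Atad2 2, and lay between 0.114 and 0.177 under the other alternatives. Counts and medians cover 4 members in most settings. They cover 9 with no filter on low values, and 3, without Eif2ak2, with transcripts assigned by length alone. The mean log2 ratio of Stat2 was 0.025 after TPM scaling, 0.0033 with the trend with GC content removed, and up to 0.079 when libraries were left out (0.022 without si-ctrl 2, 0.079 without si-Atad2 2). Without si-Atad2 1 it was -0.13 for Ddx58, -0.033 for Igtp and -0.18 for Ifitm3. For Psmb10 it was 0.0025 after TPM scaling, 0.051 without si-ctrl 1 and 0.024 without si-Atad2 2. Ifitm1 was also lost after TPM scaling (adjusted p = 0.0554), without the eBayes trend (0.0890), with transcripts of all lengths (0.206) and with the GC trend removed (0.0683). Under those last 2 settings Gbp2 had an adjusted p of 0.176 and 0.0636, and Irgm1 of 0.257 and 0.123. Irgm1 was lost without the eBayes trend too (0.0588), and without si-Atad2 1 (0.0703). The causes were not tested.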

Other observations

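Parp14, an ADP-ribosyltransferase whose gene is induced by interferons, was chosen after its values were seen. It stood at 1.70 and 1.61 FPKM in si-ctrl 1 and 2 and at 2.72 and 1.98 FPKM in si-Atad2 1 and 2, with log2 ratios of 0.46 and 0.19. The groups did not overlap and si-Atad2 1 was the highest library, but the mean ratio of 0.33 (standard error 0.095) did not pass the threshold (adjusted p = 0.112 by limma with Benjamini-Hochberg adjustment). Nanog, a pluripotency factor, had the lowest mean ratio with the same sign in both pairs among the ES cell markers. It stood at 338 and 332 FPKM in si-ctrl 1 and 2 and at 253 and 313 FPKM in si-Atad2 1 and 2 (mean log2 ratio -0.25, standard error 0.073, adjusted p = 0.112). The library with the lowest Nanog level was thus the one with the highest level of 8 of the 9 interferon response genes, and a link between these was not tested. Sox2 had the highest such ratio, 0.04 (adjusted p = 0.757).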
